A study of Homo sapiens with 8 samples.

Results

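Enhancers in gene deserts, the stretches of the genome far from any protein-coding gene, were described in 4 human medulloblastoma cell lines. MB002, D425 and HD-MB03 are lines of group 3 medulloblastoma (G3-MB), and UW228 is a line that the labels assign to the SHH subtype. Each line had 1 H3K27Ac ChIP-seq library and 1 input library from untreated cells and no replicate, so that differences between lines are differences between single libraries. A stitched enhancer of chromosomes 1 to 22 was taken as a desert enhancer if it overlapped no protein-coding gene body and if its centre lay more than 200 kb from every protein-coding transcription start site (TSS). By this rule 9585 of 86039 autosomal enhancers were desert enhancers, and 68 of them lay in chr8:127000000-130000000, the region that holds MYC, and are given separately at the end. The other 9517 comprised 3086 for MB002, 2953 for D425, 1108 for HD-MB03 and 2370 for UW228. MB002 and HD-MB03 were grown in tumor stem media and D425 and UW228 in DMEM with serum. The table of UW228 was also made at a later date than those of the 3 G3-MB lines. Subgroup and table date cannot be told apart.

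H3K27Ac, acetylation of histone H3 at lysine 27, marks active enhancers and promoters. Enhancers act on promoters by looping, sometimes over very long distances, and many gene deserts border genes for developmental transcription factors and hold enhancers that work only in certain tissues. ROSE ranks stitched enhancers by signal and calls those above the bend of the ranked curve super-enhancers (SEs), and the rest are typical enhancers. The names of the nearest protein-coding genes on both sides are given below to say where a desert lies. Which gene a desert enhancer acts on was not measured.

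The labels were checked against genes that mark the subgroups. OTX2 and CRX, transcription factors of the photoreceptor-like program of G3-MB, had an enhancer within 50 kb in each G3-MB line, with a best rank of OTX2 of 3 for MB002, 3 for D425 and 5 for HD-MB03, and neither had any in UW228. The best rank of CRX was 84 for MB002 and 89 for D425, both SEs, and 1425 for HD-MB03, not an SE. Of the genes that mark the SHH subtype, GLI2 had its best rank in UW228 at 8326 and PTCH1 at 13373, and ATOH1 had no enhancer in any line. MB002 and HD-MB03 ranked higher than UW228 at both genes, and D425 at PTCH1, with GLI2 at 1962 for MB002 and 1211 for HD-MB03 but no enhancer in D425, and PTCH1 at 2922 for MB002, 5322 for D425 and 61, an SE, for HD-MB03. The SHH label of UW228 is therefore not borne out by high-ranked enhancers at these genes, and the line is called by its name.

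The sequences at the centres of a few desert enhancers are printed to show what such elements look like. Each is 300 bases of the plus strand of GRCh38. Capitals mark matches on either strand to TAATCC (the motif of OTX and CRX homeodomains), TGANTCA (AP-1), CAGCTG (an E-box) or GGAATG (TEAD). For each line a desert enhancer of high signal made of 1 peak was taken. It was the strongest of its kind in UW228, whereas MB002, D425 and HD-MB03 had stronger ones on a chromosome from which no sequence is shown. That of MB002, at chr10:31602490-31605706 between ZEB1 and ARHGAP12, is shown at chr10:31603949-31604248. That of D425, at chr7:34240267-34243863 between BMPER and NPSR1, is shown at chr7:34241916-34242215. That of HD-MB03, at chr7:97478654-97482622 between SDHAF3 and TAC1, is shown at chr7:97480489-97480788. That of UW228, at chr3:177901918-177907971 between TBL1XR1 and KCNMB2, is shown at chr3:177904795-177905094.
MB002: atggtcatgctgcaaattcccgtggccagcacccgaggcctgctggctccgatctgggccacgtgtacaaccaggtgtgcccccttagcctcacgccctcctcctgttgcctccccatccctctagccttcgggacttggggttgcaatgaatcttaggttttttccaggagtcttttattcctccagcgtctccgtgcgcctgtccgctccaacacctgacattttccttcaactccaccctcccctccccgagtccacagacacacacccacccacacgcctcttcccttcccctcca
D425: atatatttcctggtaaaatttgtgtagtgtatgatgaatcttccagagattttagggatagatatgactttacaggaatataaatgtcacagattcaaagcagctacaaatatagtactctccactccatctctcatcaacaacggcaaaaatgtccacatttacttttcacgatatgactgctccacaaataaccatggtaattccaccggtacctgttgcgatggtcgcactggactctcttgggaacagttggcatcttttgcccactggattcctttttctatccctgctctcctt
HD-MB03: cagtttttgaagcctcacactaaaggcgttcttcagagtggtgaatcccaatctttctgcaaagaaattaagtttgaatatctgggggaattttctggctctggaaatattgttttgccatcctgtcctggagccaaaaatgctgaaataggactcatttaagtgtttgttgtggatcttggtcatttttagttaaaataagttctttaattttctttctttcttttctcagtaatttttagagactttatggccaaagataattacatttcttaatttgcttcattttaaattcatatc
UW228: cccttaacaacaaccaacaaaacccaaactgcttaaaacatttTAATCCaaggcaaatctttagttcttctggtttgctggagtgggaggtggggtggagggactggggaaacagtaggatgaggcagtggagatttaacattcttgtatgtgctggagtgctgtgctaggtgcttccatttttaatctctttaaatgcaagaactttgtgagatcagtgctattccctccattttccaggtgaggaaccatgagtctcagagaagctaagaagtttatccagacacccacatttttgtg
The windows of MB002, D425 and HD-MB03 held none of the 4 motifs, and that of UW228 held 1 TAATCC. Their GC content was 59.3% for MB002, 40% for D425, 32.7% for HD-MB03 and 43% for UW228. The window of MB002 held 12 CpG and that of UW228 none.

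Further windows were taken from the pair of desert loci with the highest mean percentile by signal among those with an enhancer in all 4 lines. At the locus between EEA1 and NUDT4 the stretch covered in every line was 180 bases long, chr12:93168173-93168352, and the window around it is chr12:93168113-93168412. At the locus between PTPRC and NR5A2 the common stretch was 5669 bases long, and its central window is chr1:198932521-198932820.
EEA1 and NUDT4: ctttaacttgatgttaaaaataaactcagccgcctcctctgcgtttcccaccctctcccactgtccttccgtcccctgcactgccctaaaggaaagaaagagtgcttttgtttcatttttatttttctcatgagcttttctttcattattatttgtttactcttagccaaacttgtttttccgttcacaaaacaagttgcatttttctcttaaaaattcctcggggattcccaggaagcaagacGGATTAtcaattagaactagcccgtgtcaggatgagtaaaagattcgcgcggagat
PTPRC and NR5A2: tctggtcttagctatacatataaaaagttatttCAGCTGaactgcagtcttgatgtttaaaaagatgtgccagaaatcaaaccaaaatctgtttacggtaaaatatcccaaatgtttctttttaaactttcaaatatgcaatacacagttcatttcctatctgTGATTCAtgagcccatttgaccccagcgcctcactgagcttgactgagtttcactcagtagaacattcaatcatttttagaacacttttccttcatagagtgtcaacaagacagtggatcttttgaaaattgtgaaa
The window between EEA1 and NUDT4 held 1 TAATCC, read here on the minus strand, and 10 CpG. The window between PTPRC and NR5A2 held 1 TGANTCA and 1 CAGCTG.

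Desert enhancers were sparse and took a small share of all signal. Deserts made up 647.8 Mb, or 23.5%, of the autosomal sequence in 961 blocks, of which 201 were at least 1 Mb long and the longest measured 5.85 Mb. Desert enhancers were 12.3% (95% exact binomial interval 11.9 to 12.7) of the autosomal enhancers of MB002, 11.5% (11.1 to 11.9) for D425, 7.37% (6.96 to 7.80) for HD-MB03 and 11.7% (11.3 to 12.2) for UW228. These intervals, like all below, cover counting over regions only, and regions of 1 library are not replicates. Outside the chromosome 8 window, deserts held 4.78, 4.57, 1.71 and 3.67 desert enhancers per Mb in MB002, D425, HD-MB03 and UW228, against 10.5, 10.7, 6.60 and 8.44 enhancers per Mb of the remaining sequence. HD-MB03, which had the fewest enhancers of all, also had the lowest share in deserts. The mean share of the 3 G3-MB lines, 10.4%, was lower than that of UW228 by 1.35 percentage points (exact permutation test, two-sided, p = 0.75). With 4 splits the smallest p possible is 0.25, so no difference of any size could pass the usual threshold. MB002 lay above UW228, and without HD-MB03 the G3-MB mean was 11.9%, or 0.155 percentage points above UW228. With the 15030 enhancers of highest signal per line, MB002 (10.5%) and D425 (9.89%) lay below UW228 (11.65%), and without HD-MB03 the difference was then -1.48 points. The sign without HD-MB03 therefore depended on which enhancers of each line were counted.

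Signal was the H3K27Ac value of an enhancer minus its input value, set to 0 where negative, in normalized reads summed over the enhancer. The share of the signal in deserts was below their share of enhancers in every line, at 6.17% for MB002, 5.77% for D425, 3.83% for HD-MB03 and 9.96% for UW228. The gap was smallest in UW228. The median signal of desert enhancers was 595 in MB002, with quartiles of 202 and 1653. It was 472 in D425, with quartiles of 156 and 1464. It was 569 in HD-MB03, with quartiles of 232 and 1368. In UW228 it was 1519, with quartiles of 478 and 4548. Signal is not on a common scale between libraries, so lines were compared by the percentile of each enhancer within its own line, where 100 is the highest.

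In the G3-MB lines desert enhancers were weaker than other enhancers outside gene bodies, and in UW228 they were not by signal. Their median percentile was 41.1 (95% interval 39.7 to 42.8) in MB002, 41.6 (40.1 to 43.3) for D425 and 41.0 (38.7 to 42.9) for HD-MB03, where the other enhancers outside gene bodies had medians of 45.8, 48.2 and 47.1. In UW228 the median was 47.5 (45.3 to 49.6) against 45.3. The difference in UW228 turned to -0.748 percentile points by signal per base pair and to -0.139 after division by relative input, while in the G3-MB lines desert enhancers stayed lower on both scales. It also rested on the enhancers within 50 kb of a TSS, whose median was 41.3 in UW228, whereas those at 100 to 200 kb had a median of 50. A median percentile of 50 would be that of all enhancers of a line. In MB002, D425 and HD-MB03, 15.1%, 15.4% and 11.3% of desert enhancers reached the upper quartile by signal, and in UW228 22.0% did. Desert enhancers were also shorter than other enhancers outside gene bodies in the G3-MB lines, with medians of 1070 against 1280 bp for MB002, 915 against 1111 bp for D425 and 1000 against 1161 bp for HD-MB03. In UW228 they were longer, with a median of 2000.5 against 1806 bp. Signal per base pair was lower in each line, with medians of 0.514 against 0.543 for MB002, 0.497 against 0.531 for D425, 0.542 against 0.565 for HD-MB03 and 0.662 against 0.668 for UW228. As percentiles these medians differed by -4.20 points for MB002, -4.65 for D425, -3.27 for HD-MB03 and -0.748 for UW228.

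**Figure D1:**
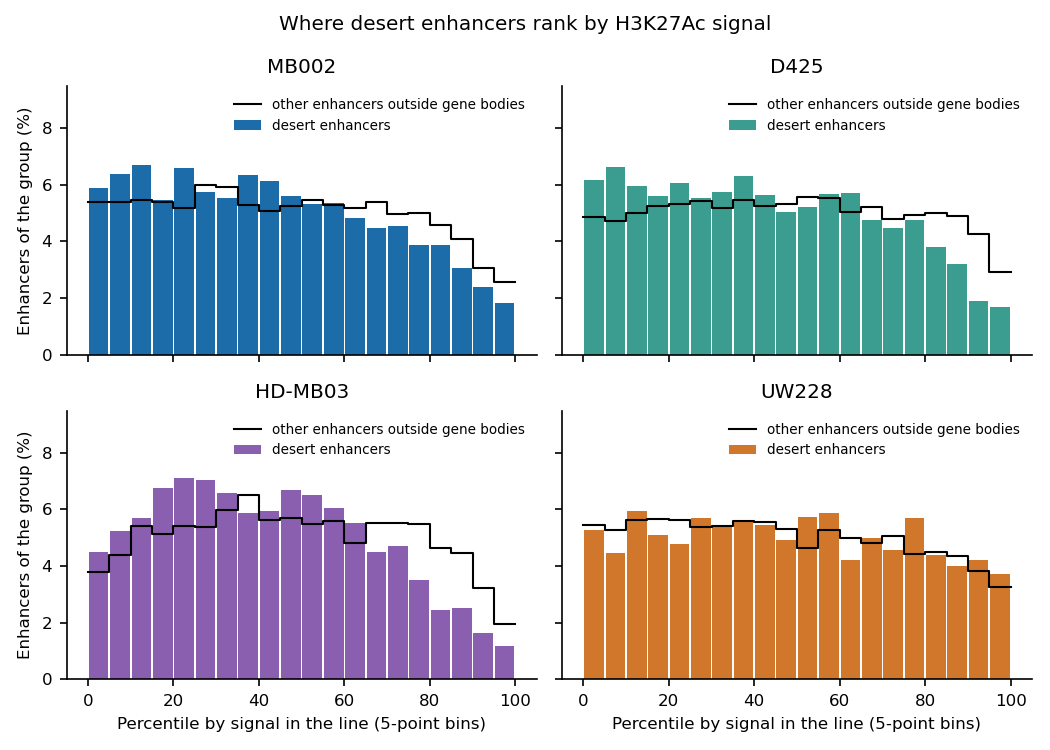
Percentile by H3K27Ac signal within each line (x axis, bins of 5 points) and percent of the enhancers of each group in the bin (y axis). Coloured bars are desert enhancers and the black line other enhancers outside gene bodies. In MB002, D425 and HD-MB03 the bars lie below the line at high percentiles, and in UW228, where the medians are 47.5 and 45.3, they follow it more closely.

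The share of SEs by the authors' call was also highest in UW228. In MB002 10 desert enhancers were SEs (0.324%, interval 0.155 to 0.595), where 1.4% of all autosomal enhancers were. In D425 8 were SEs (0.271%, interval 0.117 to 0.533), where 1.67% of all were. In HD-MB03 11 were SEs (0.993%, interval 0.497 to 1.77), where 2% of all were. In UW228 54 were SEs (2.28%, interval 1.72 to 2.96), where 3.66% of all were. Against other enhancers outside gene bodies the difference was smaller or had the opposite sign, since 0.645% of these were SEs in MB002, 0.734% for D425, 0.727% for HD-MB03 and 2.17% for UW228. For HD-MB03 and UW228 these shares lay within the intervals of the desert enhancers. Desert enhancers made up 2.83%, 1.87%, 3.67% and 7.30% of the autosomal SEs of MB002, D425, HD-MB03 and UW228.

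A few regions had a very high input. Relative input is the input per base pair divided by its median over the line. Outside the chromosome 8 window it was at least 5 at 10 desert enhancers of HD-MB03, at 1 of MB002 and at none of D425 and UW228. Among the other autosomal enhancers outside that window it was as high at 42 of HD-MB03, 38 of MB002, 5 of D425 and 1 of UW228. Enhancers inside the window are not in these counts. In HD-MB03 it reached 114 in the desert between ST3GAL1 and ZFAT on chromosome 8. Without these regions HD-MB03 had 9 SEs among its desert enhancers in place of 11, and the other lines kept their numbers. The region of MB002, chr14:57029499-57030237, had a relative input of 33.9, overlapped the lncRNA OTX2-AS1 and lay 213 kb from OTX2. What the high input does to the signal that remains after subtraction was not tested.

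The strongest desert enhancers differed between the lines, apart from some that were also strong in another line. In MB002 the highest, at rank 67 of all enhancers, was an SE of 8 peaks at chr7:131816750-131850671, between PODXL and PLXNA4, a semaphorin receptor of axon guidance. Its signal was 73191 in MB002, 1199 in the overlapping enhancer of D425 and 2334 in those of HD-MB03, and UW228 had no enhancer there. It was thus an SE in MB002 alone. The next, at rank 75, was an SE of 23 peaks at chr1:36696375-36783637, between CSF3R and GRIK3, a kainate receptor subunit, with a signal of 70063 for MB002, 16484 for D425, 160.0 for HD-MB03 and no enhancer in UW228. The following, at rank 82, lay at chr6:40326607-40369900 between MOCS1 and LRFN2, a synaptic adhesion protein, and overlapped the lncRNAs TDRG1 and LINC00951. Its signal was 67706 for MB002, 14763 for D425 and 11772 for HD-MB03, again with no enhancer in UW228.

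The highest desert enhancer of D425, at rank 47, was an SE of 10 peaks at chr11:116451991-116484056, in the desert between CADM1, an adhesion molecule of synapses, and BUD13. It had a signal of 69796 in D425, and the overlapping enhancers had 63896 in MB002, at rank 93 and also an SE, and 12762 in HD-MB03, at rank 897 and a typical enhancer. UW228 had none. The relative input at this enhancer was 2.06 for D425, 1.23 for MB002 and 0.591 for HD-MB03. The next of D425, at rank 114, was an SE of 25 peaks at chr20:6439186-6533068 between FERMT1 and BMP2, a bone morphogenetic protein, and overlapped the lncRNA CASC20. Its signal was 50114 for D425, 5216 for MB002 and 198 for HD-MB03, and UW228 had no enhancer there. At chr7:25829668-25860529, between NPVF and NFE2L3, a transcription factor of the cap'n'collar family, D425 had a signal of 39317 and UW228 of 30419, both SEs, whereas MB002 had 15671 and HD-MB03 1202 as typical enhancers. This element was shared as an SE across the subgroup labels. At rank 227 an SE of D425 at chr6:113399416-113459275, between RFPL4B and MARCKS, had a signal of 36634. It was overlapped by 2 SEs of UW228 with a summed signal of 134581, by an enhancer of 498 in MB002 and by none of HD-MB03. At rank 199, chr20:10922664-11002980 between JAG1 and BTBD3 was an SE of 38206 in D425. UW228 had 14214 there and MB002 103, neither an SE, and HD-MB03 had no enhancer.

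The highest desert enhancer of HD-MB03, at rank 11, was an SE of 6 peaks at chr13:70606671-70665504, between KLHL1 and DACH1, a developmental transcription factor, and no other line had an enhancer that overlapped it. A neighbour in the same desert, chr13:70716964-70756196, at rank 53, had a signal of 47710 for HD-MB03, 14911 for D425 and 4610 for MB002. The SE at chr13:91077983-91128478, at rank 15, lay between SLITRK5 and GPC5, a glypican, with a signal of 72395 for HD-MB03, 8500 for MB002 and 7081 for D425. At rank 32 stood a single peak of 14714 bp at chr8:64368415-64383129, which overlapped MIR124-2HG, host of the neuronal microRNA miR-124. It lay between YTHDF3 and BHLHE22, a neural bHLH transcription factor. Its signal was 59880 for HD-MB03 and 28791 for MB002, with no enhancer in D425 and UW228. The fifth of HD-MB03, at chr8:134010423-134016860 between ST3GAL1 and ZFAT, had a relative input of 89.9, and no other line had an enhancer there.

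The highest desert enhancer of UW228, at rank 13, was an SE of 20 peaks at chr3:177744509-177838724, between TBL1XR1, a transcriptional corepressor subunit, and KCNMB2, a potassium channel subunit, and overlapped LINC00578 and LINC02015. Its signal was 134115 for UW228, 7430 for MB002, 5072 for D425 and 1426 for HD-MB03. The next, at rank 18, lay at chr5:57778264-57844918 between ACTBL2 and PLK2, a polo-like kinase, with a signal of 121744 for UW228, 140 for MB002 and 1256 for HD-MB03 and no enhancer in D425. At rank 22 was chr6:113038452-113124671, between RFPL4B and MARCKS, an actin-binding substrate of protein kinase C, with a signal of 115861 for UW228, 276 for MB002, 88.8 for D425 and 819 for HD-MB03. At rank 34 was chr5:96171388-96260894, between ELL2 and PCSK1, a prohormone convertase, with a signal of 103469 for UW228, 18511 for HD-MB03, 11690 for D425 and 982 for MB002. At rank 40 was chr6:113344633-113417304, again between RFPL4B and MARCKS, with a signal of 98142 for UW228. D425 had 2 enhancers there with a summed signal of 54328, 1 of them an SE. HD-MB03 had 150 and MB002 no enhancer.

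Desert enhancers lay farther apart than other enhancers, with a median gap of 82.0 kb for MB002, 93.8 kb for D425, 292 kb for HD-MB03 and 66.3 kb for UW228, against 42.9, 39.5, 53.6 and 45.7 kb among the other enhancers. The share with another desert enhancer of the same line within 100 kb was 77.1% (75.6 to 78.6) for MB002, 73.0% (71.3 to 74.6) for D425, 52.9% (49.9 to 55.9) for HD-MB03 and 80.2% (78.5 to 81.8) for UW228. The number of desert enhancers also differs between lines and was lowest in HD-MB03, at 1108. The part of this number in the share was not tested. The largest cluster held 18 enhancers in MB002, 16 for D425, 9 for HD-MB03 and 25 for UW228. Clusters of at least 5 held 29.7%, 26.9%, 10.5% and 38.6% of desert enhancers of the 4 lines in the same order. Members of these clusters were stronger than lone members in each line, with a median percentile of 48.5 against 34.4 for MB002, 52.0 against 38.1 for D425, 57.5 against 35.8 for HD-MB03 and 56.2 against 35.8 for UW228. They were also overlapped in another line more often, in 51.5% against 43.4% for MB002, 54.1% against 45.5% for D425, 87.1% against 71.1% for HD-MB03 and 29.5% against 18.5% for UW228.

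The desert between CADM1 and BUD13 held the cluster of highest summed signal in both MB002 and D425. Its cluster in MB002 spanned 821 kb with 15 enhancers, 2 of them SEs, and a summed signal of 243133. In D425 the whole desert held 12 enhancers with a sum of 150637 and 1 SE, in HD-MB03 9 with a sum of 29196 and no SE, and in UW228 none. The desert was thus filled in each G3-MB line and empty in UW228. The other leading clusters of MB002 lay between PODXL and PLXNA4, with 6 enhancers, 3 SEs and a sum of 183029, and between CD83 and JARID2, a Polycomb cofactor, with 15 enhancers, 1 SE and a sum of 116912. Those of D425 lay between JAG1, a Notch ligand, and BTBD3, with 11 enhancers and a sum of 115712, and between RFPL4B and MARCKS, with 9 enhancers and a sum of 87337. At the former UW228 also had 11 enhancers, 1 SE and a sum of 66084. MB002 had 8 there with a sum of 14202 and HD-MB03 3 with 2205, without an SE.

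The desert between RFPL4B and MARCKS held 20 enhancers in UW228 with 5 SEs and a summed signal of 459287, the highest of any desert of that line. It held 16 with 1 SE for D425, 7 for MB002 and 4 for HD-MB03, the last 2 lines without an SE. Because signals are not on a common scale between libraries, its share of the desert signal of each line is given, which was 4.50% for UW228, 2.14% for D425, 0.135% for MB002 and 0.217% for HD-MB03. The desert between CADM1 and BUD13 had 4.28% for MB002, 3.33% for D425 and 1.58% for HD-MB03. The next clusters of UW228 lay between TBL1XR1 and KCNMB2, with 10 enhancers, 5 SEs and a sum of 381647, and between CITED2, a transcriptional coregulator, and NMBR, with 25 enhancers, 3 SEs and a sum of 279939. The leading cluster of HD-MB03, between KLHL1 and DACH1, held 2 enhancers, both SEs, with a sum of 130923, and the next, in MIR99AHG between USP25 and CXADR, held 6 with 3 SEs and a sum of 125186. At the latter UW228 also had 7 enhancers, 2 SEs and a sum of 145729, while MB002 and D425 had 6 each, with sums of 16009 and 8654 and no SE. The strongest 1% of members, which were 12 enhancers for HD-MB03, 31 for MB002, 30 for D425 and 24 for UW228, held 27.9% of the desert signal of HD-MB03, against 18.3% for MB002, 16.7% for D425 and 16.02% for UW228.

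**Figure D2:**
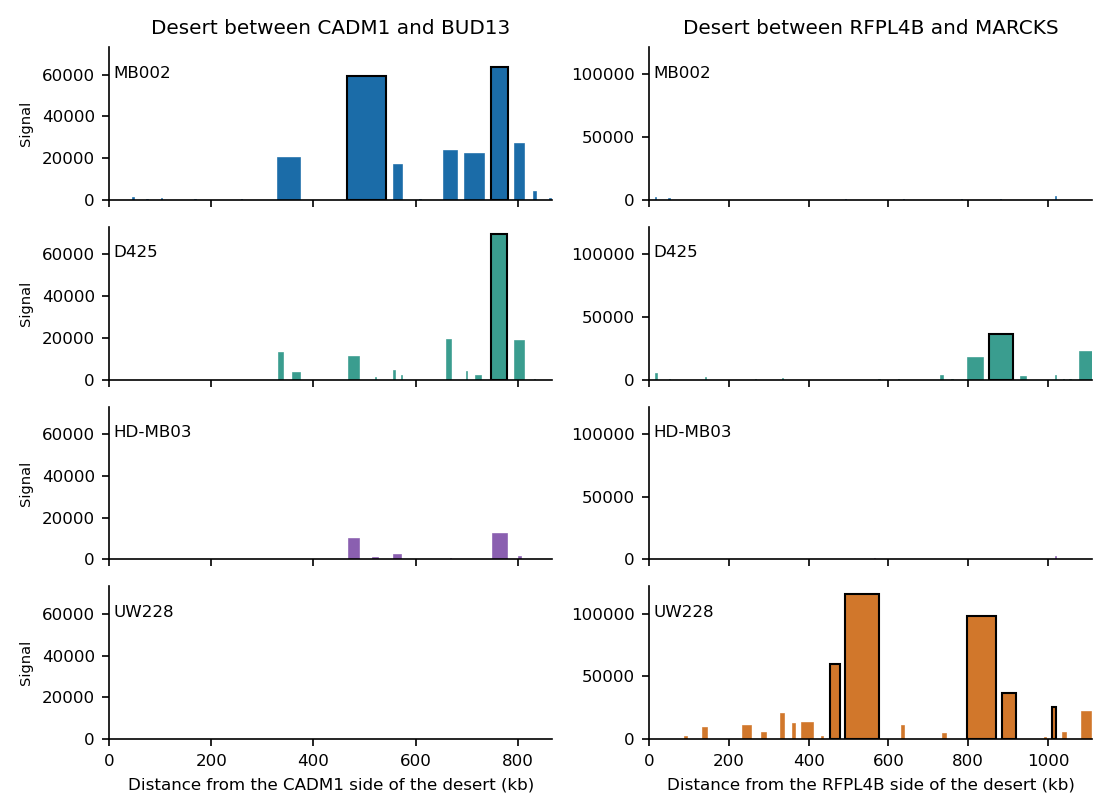
Signal (y axis, summed normalized reads) of each desert enhancer along the deserts between CADM1 and BUD13 and between RFPL4B and MARCKS (x axis, kb from the left side), with 1 row per line and bars as wide as the enhancers but at least 3 kb. Black outlines are SEs. The left desert is filled in the 3 G3-MB lines and empty in UW228, and the right holds 20 enhancers with 5 SEs in UW228 and 16 with 1 SE in D425. Heights are not on a common scale between lines.

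Desert enhancers were overlapped in other lines less often than other enhancers outside gene bodies in each line, by shares whose intervals did not overlap. At least 1 bp was overlapped by an enhancer of another line in 45.9% (44.1 to 47.7) of desert enhancers of MB002, against 57.9% of other enhancers outside gene bodies. The shares were 48.6% (46.8 to 50.4) against 57.1% for D425 and 24.8% (23.0 to 26.6) against 40.9% for UW228. In HD-MB03 74.3% (71.6 to 76.8) were shared against 78.4% (77.0 to 79.6), and against all other enhancers of that line, of which 74.4% were shared, there was no such gap. Pairs of G3-MB lines shared more than any G3-MB line did with UW228. Of the desert enhancers of MB002, 35.2% overlapped an enhancer of D425, 21.9% an enhancer of HD-MB03 and 9.40% an enhancer of UW228. Of those of UW228, 17.8% overlapped an enhancer of D425, 11.7% an enhancer of MB002 and 6.58% an enhancer of HD-MB03.

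Sharing rose with signal in every line. From the lowest to the highest quartile by signal, the share of desert enhancers found in another line went from 20.8% to 84.3% in MB002, from 28.6% to 77.5% in D425, from 61.2% to 92.8% in HD-MB03 and from 11.4% to 46.7% in UW228. Stronger enhancers are also longer, so that an overlap of 1 bp is easier to reach. Within the highest quartile the other enhancers outside gene bodies were at 89.7% for MB002, 82.2% for D425, 94.7% for HD-MB03 and 62.0% for UW228. The gap to deserts thus remained in that group in MB002 and UW228, while in D425 and HD-MB03 the intervals overlapped. In HD-MB03 they overlapped in each lower quartile as well. The shares there were 61.2% in deserts against 61.7%, 71.1% against 73.6% and 84.4% against 86.4%, from the lowest quartile up.

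**Figure D3:**
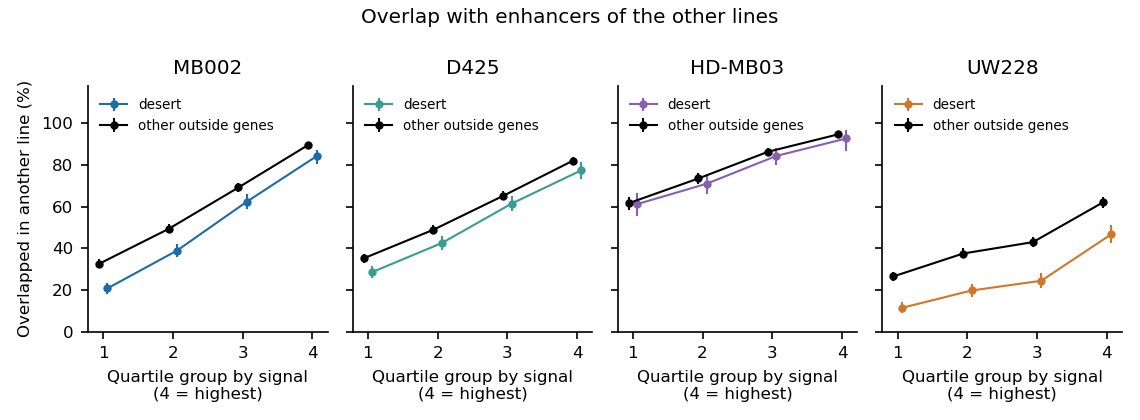
Percent of enhancers overlapped by an enhancer of any other line (y axis) by quartile group of signal within the line (x axis, 4 is the highest), for desert enhancers (coloured) and other enhancers outside gene bodies (black), with 95% exact binomial intervals. Both rise in every line, and the gap is widest in UW228, at 46.7% and 62.0% in the highest quartile.

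The desert enhancers of the 4 lines merged into 6971 loci. Of these 75.4% were seen in 1 line, 15.8% in 2, 7.16% in 3 and 1.65%, or 115 loci, in all 4. Among 45877 loci elsewhere on the autosomes 66.4% were seen in 1 line and 5.93% in all 4. The 3 G3-MB lines shared 371 desert loci, 5.32%, at which UW228 had no enhancer, and 1783 loci, 25.6%, were seen in UW228 alone. Elsewhere these shares were 6.86% and 21.2%. Loci seen in more lines had higher percentiles, with a median of the mean percentile of 32.7 for 1 line, 49.8 for 2, 58.6 for 3 and 65.0 for 4.

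Among loci present in all 4 lines, the highest mean percentile, 93.8, was that between EEA1 and NUDT4 on chromosome 12, which overlapped LINC02412 and whose common stretch is printed above. Its percentile was 97.0 for MB002, 97.9 for D425, 86.8 for HD-MB03 and 93.4 for UW228, and it was an SE in none of them. The desert rule was met by 2 of its 3 enhancers in MB002, 2 of 3 in HD-MB03 and 1 of 3 in UW228. The 1 enhancer of D425 met it narrowly, with its centre 200.1 kb from a TSS. The next locus, between PTPRC and NR5A2, overlapped MIR181A1HG, host of a miR-181 microRNA. It was an SE in UW228, at percentile 98.6, and a typical enhancer in the G3-MB lines, at 95.7, 82.4 and 92.4 in MB002, D425 and HD-MB03. The locus between SOX4, a transcription factor of neural progenitors, and PRL lay in CASC15 and was an SE in UW228 only, at percentile 98.3 there and at 96.0 for MB002, 89.2 for D425 and 83.6 for HD-MB03. The locus between SOX9, a transcription factor of glia and cartilage, and SLC39A11 was likewise an SE in UW228 only, at 98.1, with 88.5, 90.6 and 77.3 in MB002, D425 and HD-MB03.

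Of the loci in the 3 G3-MB lines without any enhancer in UW228, the highest mean percentiles belonged to the desert between CADM1 and BUD13, with 97.8 and 95.2 at different places, and to that between MOCS1 and LRFN2, with 96.3. The locus between GRM7, a metabotropic glutamate receptor, and LMCD1 was at percentile 97.3 for MB002, 98.9 for D425, where it was an SE, and 88.7 in HD-MB03, where the enhancer did not meet the desert rule. The locus between FANCL and BCL11A, a zinc finger transcription factor of neurons and blood, was at 91.6 for MB002, 89.1 for D425 and 94.9 for HD-MB03, and an SE in none.

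The 8 leading loci of UW228 without an enhancer in a G3-MB line were all SEs there, at percentiles from 97.6 to 99.5. They included chr2:12284070-12348175 between LPIN1 and TRIB2, a pseudokinase, with a signal of 67419. Another was chr11:128021553-128069967 between KIRREL3 and ETS1, an ETS family transcription factor, with a signal of 66090. They also included chr9:115668788-115694975, with a signal of 34939. It lay 551 kb from TNC, the matrix protein tenascin C, and 459 kb from PAPPA on the other side. A further one was chr5:93141317-93166053 between ARRDC3 and NR2F1, a nuclear receptor of neural crest and forebrain, with a signal of 34101. These loci were chosen by their pattern, so that it is no separate result.

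**Figure D4:**
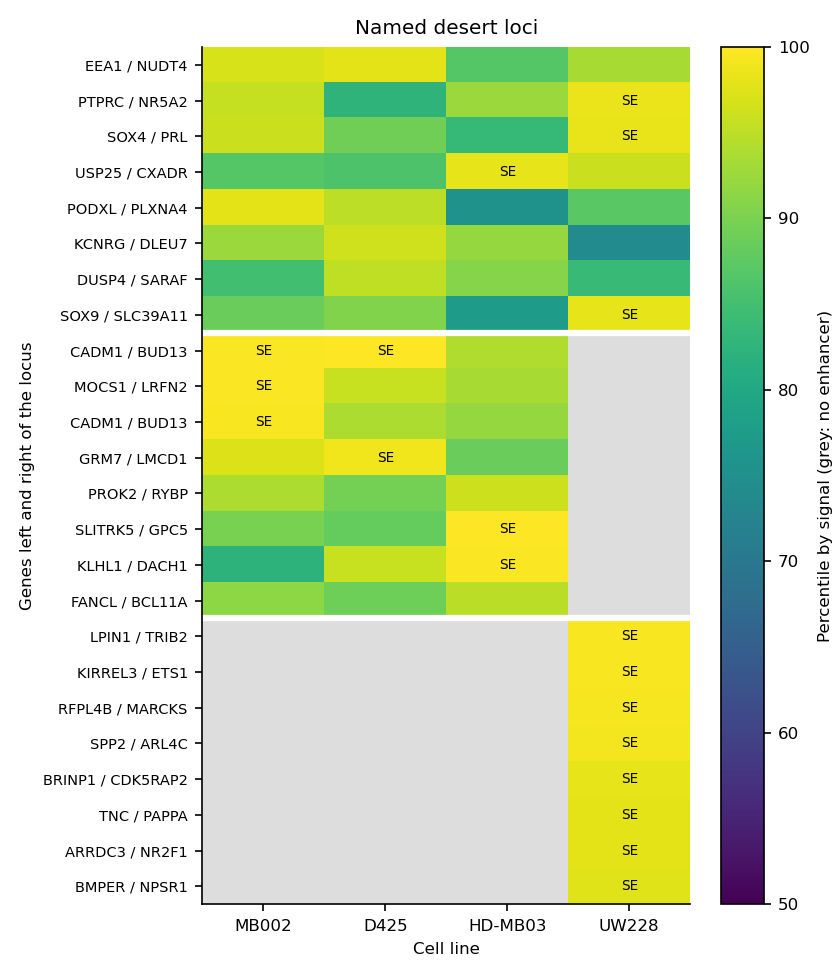
Percentile by signal (colour) of the named desert loci in each line (columns), with SE where the locus holds an SE and grey where the line had no enhancer. Loci are labelled by the genes on both sides. From the top are 8 loci of all 4 lines, 8 of the 3 G3-MB lines and 8 of UW228 alone, the last with percentiles from 97.6 to 99.5.

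Enhancers over 800 kb from a TSS had lower percentiles and were less often overlapped in another line than those at 200 to 400 kb. From 200 to 400 kb the median percentile was 44.9 for MB002, 46.5 for D425, 41.9 for HD-MB03 and 48.2 for UW228, and over 800 kb it was 33.1, 37.6, 32.9 and 40.4. Between these, at 400 to 800 kb, it was 38.7, 37.9, 41.1 and 48.8, so that the median of UW228 was not lower there. In HD-MB03 the intervals at 200 to 400 kb and over 800 kb overlapped. No SE lay over 800 kb from a TSS among 491 enhancers of MB002, 493 of D425 and 153 of HD-MB03, which allows a share of up to 0.748%, 0.745% and 2.38% by the exact binomial interval. In UW228 4 of 289 were SEs. The share overlapped in another line fell from 48.2% at 200 to 400 kb to 38.3% over 800 kb in MB002, from 52.4% to 39.1% in D425, from 77.5% to 68.0% in HD-MB03, where the intervals overlapped, and from 29.3% to 19.0% in UW228. The 3 enhancers nearest the limit on each side are given as a description, with no test. In D425 those just outside had percentiles of 38.2, 25.6 and 43.0, and those just inside 5.73, 97.9 and 75.2. In UW228 those just outside had 30.3, 12.9 and 55.3, and those just inside 75.9, 80.3 and 81.6. In MB002 they had 7.76, 28.4 and 45.9 outside and 21.5, 39.7 and 14.3 inside, and in HD-MB03 52.1, 21.0 and 35.4 outside and 17.9, 13.0 and 72.3 inside.

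**Figure D5:**
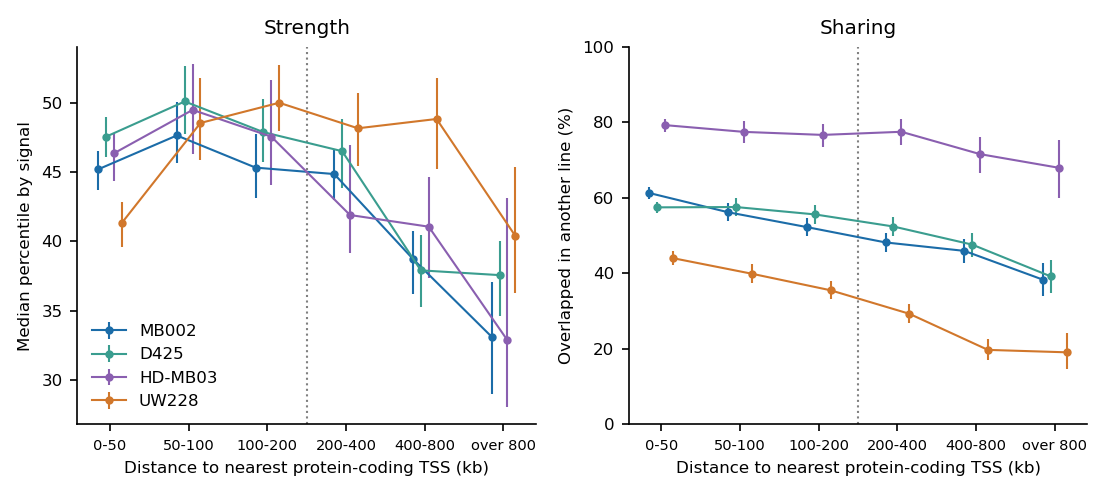
Median percentile by signal (y axis of the left panel) and percent overlapped in another line (y axis of the right panel) of enhancers outside protein-coding gene bodies by distance to the nearest protein-coding TSS (x axis, kb), for the 4 lines, with 95% intervals. Desert enhancers lie right of the dotted line in each panel. Sharing is lower over 800 kb than within 50 kb in each line, at 19.0% in UW228 and 68.0% in HD-MB03, and the median percentile over 800 kb lies below that at 200 to 400 kb in each line.

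Many desert enhancers lay in long non-coding RNA (lncRNA) genes, which the rule did not use. In MB002 41.5% overlapped a lncRNA gene body, as did 39.4% for D425, 43.1% for HD-MB03 and 42.4% for UW228, against 32.8%, 31.2%, 32.9% and 34.9% of other enhancers outside gene bodies. Fewer overlapped a lncRNA TSS, namely 85 for MB002, 121 for D425, 42 for HD-MB03 and 108 for UW228, or 2.75%, 4.10%, 3.79% and 4.56%, which was below the 6.37%, 6.997%, 8.10% and 7.14% of other enhancers outside gene bodies. The desert enhancers at a lncRNA TSS were strong, with a median percentile of 78.4 for MB002, 72.3 for D425, 72.1 for HD-MB03 and 82.0 for UW228, against 40.2, 40.4, 39.8 and 45.3 for the rest of the desert enhancers. H3K27Ac also marks promoters, and longer regions overlap a TSS more easily. The part of each in this difference was not tested.

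Genes on both sides of the desert enhancers were set against lists of named genes. A developmental transcription factor of a list of 186 stood next to 11.8% of desert enhancers in MB002, 12.3% for D425, 10.5% for HD-MB03 and 14.4% for UW228, where 10.5% of the desert sequence had such a neighbour. Neuronal adhesion, guidance and synapse genes, a list of 134, stood next to 28.3% for MB002, 26.8% for D425, 25.3% for HD-MB03 and 20.4% for UW228, although 30.0% of the desert sequence had such a neighbour. The neuronal share was thus below that of the sequence in each line, and lowest in UW228. Matrix, mesenchymal and secreted factor genes, a list of 92, stood next to 3.11%, 4.74%, 3.34% and 5.82%, against 2.12% of the sequence. Other enhancers outside gene bodies stood next to the transcription factors in 6.44%, 6.06%, 5.27% and 6.44%, to the neuronal genes in 5.20%, 4.01%, 3.66% and 3.44%, and to the matrix list in 2.39%, 2.87%, 2.57% and 4.95% in the same order. For the matrix list the intervals of desert and other enhancers overlapped in each line but D425.

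Single genes of these lists showed where lines differed. Deserts beside EPHA7, an ephrin receptor, held 25 desert enhancers in MB002, 27 for D425, 13 for HD-MB03 and 1 for UW228. Those beside ID2, an inhibitor of bHLH factors, held 16 in D425 with 1 SE, 2 in HD-MB03 and none in MB002 and UW228. Those beside ETS1 held 15 in UW228 with a summed signal of 160878, against 8 with 26354 in MB002, 3 with 2817 in D425 and 2 with 386 in HD-MB03. Deserts beside ZEB2, a zinc finger repressor of neural crest and neural progenitors, were filled in each line, with 26 for MB002, 27 for D425, 7 for HD-MB03 and 22 for UW228. Those beside THBS1, the matrix protein thrombospondin, held 10 in UW228 with 3 SEs and a sum of 226461, 11 in MB002 with a sum of 12434, 11 in D425 with 24049 and 5 in HD-MB03 with 5044.

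Sequence features were counted in the central 300 bases of enhancers made of 1 peak. The median GC content of desert enhancers was 43.3% for MB002, 45.3% for D425, 43.3% for HD-MB03 and 38.0% for UW228, which was lower in each line than the 48.0%, 49.3%, 48.7% and 42.7% of other enhancers outside gene bodies. At least 10 CpG were found in 2.21%, 6.89%, 3.62% and 0.814% of desert windows, against 14.6%, 15.7%, 17.2% and 4.53%. TGANTCA, the AP-1 motif, was in 11.5% (10.0 to 13.1) of 1675 desert windows of MB002, 11.5% (9.93 to 13.2) of 1552 of D425, 12.3% (10.2 to 14.8) of 828 of HD-MB03 and 24.8% (22.4 to 27.3) of 1229 of UW228. Other enhancers of 1 peak outside gene bodies held it in 9.83%, 11.1%, 10.3% and 21.8% (20.3 to 23.2 in UW228), with intervals that overlapped those of the desert windows in each line. The higher share in UW228 was thus seen outside deserts as well. TAATCC was in 18.3% of desert windows of MB002, 18.3% of D425, 17.1% of HD-MB03 and 15.2% of UW228, against 22.6%, 20.98%, 17.6% and 16.6% of the other enhancers outside gene bodies, and the intervals were apart in MB002 alone. CAGCTG was in 19.2%, 16.9%, 23.9% and 11.1% in deserts against 19.6%, 18.2%, 25.8% and 14.1% of those others. GGAATG was in 17.3%, 16.4%, 15.5% and 20.7% against 16.8%, 16.4%, 16.4% and 20.1%. Base composition differs between these groups as given, and its part in the motif shares was not tested. In D425 48.6% of the desert enhancers of 1 peak were shorter than the window, against 8.71% in UW228, so that the windows hold different amounts of flanking sequence.

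In the window of chromosome 8 that holds MYC, chr8:127000000-130000000, MB002 had 17 desert enhancers, D425 12, HD-MB03 11 and UW228 28. Their share of the summed signal of the window was 1.11% for MB002, 4.89% for D425, 3.15% for HD-MB03 and 37.7% for UW228. In the G3-MB lines nearly all signal there thus lay at enhancers that did not meet the desert rule. The summed signal of all enhancers of the window was 2239900 for MB002, 1852600 for D425, 501429 for HD-MB03 and 254367 for UW228. The shares depend on these totals. The input at the enhancers there that did not meet the desert rule is not given, and its part in the shares was not tested. Most of the desert enhancers there overlapped a lncRNA gene body, with 16, 11, 11 and 26 in the same order. The strongest of UW228 was an SE of signal 26578 at chr8:128167531-128202502 in PVT1, a lncRNA gene beside MYC, where D425 had a typical enhancer of 9971 and MB002 and HD-MB03 none. In PVT1 at chr8:128086067-128092450 MB002 had a signal of 8475, D425 of 6935 and HD-MB03 of 4764, and UW228 had no enhancer. The only other SE was that of D425 at chr8:129072886-129075123 in CCDC26, with a signal of 45874 and a relative input of 134. A further enhancer of D425, at chr8:128600291-128602055, had a signal of 20785 and a relative input of 50.3. Without these 2 enhancers the summed signal of the desert enhancers of D425 in the window was 23897 in place of 90557. Its share was 1.34% in place of 4.89%, which was below that of HD-MB03. All other enhancers of the window, whatever their input, stayed in the total of which this is a share. No other line had an enhancer at the SE, and the part of the input in these values was not tested.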

How the data were processed

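Each of the 4 lines had 1 H3K27Ac ChIP-seq library and 1 input library. The authors aligned reads to GRCh38 with Bowtie2 2.3.0, converted them with SAMtools 1.9, removed multi-mappers and duplicates, called peaks with MACS2 2.2.6 and stitched and ranked them with ROSE. The deposited signal of each stitched enhancer is reads per base pair, normalized to mapped reads and multiplied by length, with input in a separate column. The deposited score is the ROSE rank (1 is the highest), beside the SE call of the authors. Library depth was not used and is unknown here, so that weak enhancers missed in a line cannot be told from absent ones.

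Input was subtracted from H3K27Ac signal and negative values were set to 0. Genes, TSSs of protein-coding transcripts and lncRNAs came from GENCODE 44, and no enhancer ended past a GRCh38 chromosome. Python 3.11.15, numpy 2.4.6, pandas 2.3.3, scipy 1.17.1 and matplotlib 3.10.9 were used. Membership, overlaps and clusters were tested on simulated regions. Exact binomial intervals and order statistics for medians were at 95%. The exact permutation test over lines was the only test. Clusters joined members with gaps of at most 100 kb.

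Named were, per line, up to 5 members of highest signal and 3 clusters of highest summed signal, 8 loci of each sharing pattern and 3 members per line in the chromosome 8 window, and per gene list the genes with most members. Genes of the lists given singly, and the members of highest input, were picked after their values were seen. The sequences shown per line are those of the member of 1 peak with the highest signal outside chromosome 8. The members and lists were chosen with earlier results of these data known. Alternatives were other distances, TSS sets, signal scales, cluster gaps and overlap rules, and those chosen after the data were seen are named as such. The repeat-masked share was not computed because the genome used does not mark repeats. RNA-seq data were not analysed here.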

Additional observations from a re-analysis of the deposited data

Results flagged for a closer look

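Chromosome X was outside the rule and was looked at by the same distance rule. It held 107 desert enhancers in MB002, 87 for D425, 18 for HD-MB03 and 79 for UW228, which was 12.01%, 12.8%, 7.06% and 11.7% of the enhancers of that chromosome. Of these 2 were SEs, both in UW228, with a best rank of 115.

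In 3 of 10 contrasts of desert enhancers with other enhancers outside gene bodies, the 3 G3-MB lines went one way and UW228 the other, and the difference between the lines was not tested. The median percentile by signal of desert enhancers minus that of the others was -4.66 for MB002, -6.62 for D425, -6.15 for HD-MB03 and 2.18 for UW228. The difference in median length was -209.5 bp, -196 bp, -161 bp and 194.5 bp in the same order. The difference in the share made of 1 peak was 1.34, 0.295, 5.35 and -3.35 percentage points. Length, peak number and signal of a stitched enhancer are not independent of each other.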

How the results depend on the processing

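No paired analysis was possible because each group holds 1 library, and no replicate could be left out. Of 116 recomputed values that carry no sign, 47 stayed within the interval of the value reported, or within 1.5 times a count, and 69 moved. With a distance over 100 kb, the number of desert enhancers was 4851 for MB002, 4620 for D425, 1893 for HD-MB03 and 3838 for UW228, and their percent of autosomal enhancers 19.3, 18.0, 12.6 and 19.0. Over 500 kb the numbers were 1017, 1060, 350 and 767 and the percents 4.04, 4.14, 2.33 and 3.80. With 1 TSS per gene the percents were 13.2, 12.3, 8.01 and 12.7, and with the TSSs of all transcripts 11.3, 10.7, 6.73 and 10.8. With an equal number of 15030 enhancers of highest signal per line, chosen after the data were seen, the percent was 10.5 for MB002, 9.89 for D425 and 11.65 for UW228. HD-MB03 had the lowest percent under each of these settings.

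The percent of SEs became 1.81 for MB002, 1.69 for D425 and 3.71 for UW228 with the top 5% by signal in place of the SE call, 0.0983, 0.0943 and 1.17 over 500 kb, and 0.628 in D425 over 100 kb. The median percentile by mean signal per base pair was 47.0 for MB002, 47.3 for D425, 55.2 for HD-MB03 and 51.3 for UW228, and among enhancers of 1 peak 45.4, 44.2, 49.9 and 51.4. After division by relative input density it was 42.9 for MB002, 44.2 for D425 and 45.1 for UW228. Over 500 kb it was 35.8, 37.6 and 45.2 in these lines, and over 100 kb 43.8 for D425 and 43.2 for HD-MB03. The comparison of desert enhancers with other enhancers outside gene bodies on these scales was chosen after seeing the data. Its sign turned in UW228 by signal per base pair and after division by relative input.

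Clustering and sharing depended on their definitions. With gaps of at most 50 kb, the percent with a neighbour was 56.3 for MB002, 52.4 for D425, 35.8 for HD-MB03 and 62.9 for UW228, and with 200 kb 87.9, 85.0, 66.1 and 89.0. The percent overlapped in another line was 29.3, 37.6, 63.6 and 12.1 when at least 50% of the length had to be covered, 55.8, 59.9, 81.0 and 41.4 when gaps of at most 10 kb counted, and 70.8, 67.5, 86.9 and 34.8 in the upper 50% by signal. The difference between the G3-MB lines and UW228 was recomputed 9 times and reversed in 2. With all lines it ran from -4.70 percentage points by share of signal (exact permutation p = 0.25, the smallest possible) to -0.296 over 500 kb, and was -2.37 over 100 kb and -2.41 at an equal number. Without HD-MB03, chosen after the data were seen, it turned to 0.155 as reported and to 0.290 over 500 kb, and stayed negative at -3.99 by share of signal, -0.357 over 100 kb and -1.48 at an equal number. The cause of these shifts was not tested.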
